A study of Mus musculus with 27 samples.

Results

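The genes examined here are 10 that handle calcium at the sarcoplasmic reticulum of heart muscle: *Ryr2*, *Casq2*, *Trdn*, *Jph2*, *Hrc*, *Srl*, *Atp2a2*, *Pln*, *Sln* and *Slc8a1*. They were chosen by function, out of 22367 annotated protein-coding genes, by a rule that uses no measured value but with earlier results of these data known. For each gene, the locus was its annotated body plus 5 kb on either side of every transcription start site (TSS), and every region of the study's merged list of H3K4 methylation that touched the locus was kept. This gave 300 regions of the 358833 in the merged list. Each was then looked up in the study's list of regions with decreased H3K4me1 and its list of regions with decreased H3K4me2 in mutant hearts.

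A heartbeat is driven by calcium that leaves the sarcoplasmic reticulum and is pumped back into it. RYR2, the ryanodine receptor, is the release channel, and it opens when calcium enters the cell through the surface channel. Calsequestrin 2 (*Casq2*) stores calcium inside the reticulum, triadin (*Trdn*) ties it to the channel, and junctophilin 2 (*Jph2*) holds the reticulum close to the surface membrane. The pump SERCA2 (*Atp2a2*) returns calcium to the store and is restrained by the small membrane proteins phospholamban (*Pln*) and sarcolipin (*Sln*), of which sarcolipin is mostly atrial. The exchanger NCX1 (*Slc8a1*) moves calcium out of the cell in return for sodium. H3K4me1 is found mainly at enhancers, H3K4me3 at promoters, and H3K4me2 at both.

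To determine how loss of the H3K4 methyltransferase KMT2D affects these marks, the study compared E11.5 hearts of *Tnnt2::Cre;Kmt2d fl/+;mTmG/+* controls and *Tnnt2::Cre;Kmt2d fl/fl;mTmG/+* mutants, both on a C57BL/6 background. Controls therefore carried Cre and 1 floxed copy of *Kmt2d* as well as the reporter allele. Each genotype had 3 pools of 30 hearts, from which input and the 3 marks were sequenced, which makes 24 of the 27 libraries. The remaining 3 libraries, KMT2D ChIP-Exo from cardiomyocytes derived from embryonic stem cells, were not analysed here. *Tnnt2::Cre* acts in heart muscle cells, whereas whole hearts also hold endocardium, epicardium, fibroblasts and blood, in which *Kmt2d* remains.

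The deposited lists give a chromosome, a start and an end for each region, with no read count, fold change or replicate value. A region called decreased is 1 that the authors placed in the corresponding list, for which the study states a false discovery rate (FDR) of 0.1. The deposited H3K4me2 list holds more regions than the study reports at that FDR. The depth behind each region is unknown, the size of a decrease cannot be given, and the spread between pools is not known. A region outside the lists may still have changed. Counts for the calcium handling genes are therefore read beside the share of all regions, or of all coding genes, that was called. Fewer heart muscle cells in a pool and less mark per cell cannot be told apart.

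Regions were found over the TSS of all 6 heart muscle genes checked (*Tnnt2*, *Myh6*, *Myl7*, *Actc1*, *Nkx2-5* and *Tnni3*), with widths from 6180 to 22900 bp. Genes of endothelium and endocardium (4 of 4), epicardium (4 of 4), smooth muscle and fibroblasts (4 of 4) and blood (3 of 4) also had one, with median widths from 6210 to 8000 bp among the genes that had one. Of 6 genes typical of other organs, 3 had one, the widest of them 2440 bp. The merged list thus holds regions at genes of several heart cell types, and which cells carried each mark was not tested.

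The 250 bases before the start of 7 members are printed first. They are from the starts that lay in a called region, and from that of *Sln*. Starts of *Casq2*, *Hrc* and *Srl*, whose regions were in neither list, are not printed. The RefSeq start of *Slc8a1* lies outside the rule and was added after seeing the data. Over GENCODE starts, decreased H3K4me2 was called in 4 of 9 genes, beside 29.2% of coding genes with a region over a TSS. All are from NCBIM37 (mm9), read 5′ to 3′ on the strand of the gene, and the last base printed is the one before the start. Those of *Atp2a2* (chr5:122952184-122952433, minus strand), *Pln* (chr10:53057242-53057491, plus strand), *Trdn* (chr10:32803039-32803288, plus strand), *Jph2* (chr2:163223730-163223979, minus strand) and *Slc8a1* at its RefSeq start (chr17:82137728-82137977, minus strand) lay in H3K4me2-decreased regions. The *Ryr2* sequence (chr13:12199213-12199462, minus strand) lay in an H3K4me1-decreased region. The *Sln* sequence (chr9:53697808-53698057, plus strand) lay in no region. Capitals mark TATAAA and the GATA motif AGATAA, in either orientation.
Atp2a2: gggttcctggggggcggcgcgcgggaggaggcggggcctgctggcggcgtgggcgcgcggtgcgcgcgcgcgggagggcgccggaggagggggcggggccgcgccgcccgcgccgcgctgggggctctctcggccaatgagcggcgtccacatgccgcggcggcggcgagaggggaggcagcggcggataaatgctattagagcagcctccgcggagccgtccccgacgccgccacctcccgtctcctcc
Pln: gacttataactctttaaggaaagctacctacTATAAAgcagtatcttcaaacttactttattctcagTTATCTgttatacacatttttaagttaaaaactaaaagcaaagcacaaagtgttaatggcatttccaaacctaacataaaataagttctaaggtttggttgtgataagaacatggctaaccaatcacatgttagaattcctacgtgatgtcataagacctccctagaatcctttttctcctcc
Trdn: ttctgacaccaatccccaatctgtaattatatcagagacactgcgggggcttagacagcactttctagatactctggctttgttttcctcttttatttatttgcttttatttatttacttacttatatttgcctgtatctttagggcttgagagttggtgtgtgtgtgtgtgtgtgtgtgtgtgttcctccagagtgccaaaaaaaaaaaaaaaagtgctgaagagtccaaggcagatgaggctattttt
Jph2: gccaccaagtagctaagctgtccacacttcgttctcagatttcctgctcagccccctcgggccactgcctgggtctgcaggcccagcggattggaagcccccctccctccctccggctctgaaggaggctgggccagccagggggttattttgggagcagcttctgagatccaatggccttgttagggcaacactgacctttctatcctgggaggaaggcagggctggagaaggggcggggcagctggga
Slc8a1: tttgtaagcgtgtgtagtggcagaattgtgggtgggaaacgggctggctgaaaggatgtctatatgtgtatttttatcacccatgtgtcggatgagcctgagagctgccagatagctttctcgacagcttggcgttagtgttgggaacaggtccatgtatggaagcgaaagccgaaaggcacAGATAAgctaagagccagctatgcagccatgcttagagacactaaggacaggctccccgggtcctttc
Ryr2: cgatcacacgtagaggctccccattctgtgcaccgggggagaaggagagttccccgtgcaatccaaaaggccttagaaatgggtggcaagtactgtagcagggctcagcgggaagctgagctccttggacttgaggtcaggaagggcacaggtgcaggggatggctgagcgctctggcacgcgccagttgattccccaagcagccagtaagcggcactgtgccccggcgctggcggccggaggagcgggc
Sln: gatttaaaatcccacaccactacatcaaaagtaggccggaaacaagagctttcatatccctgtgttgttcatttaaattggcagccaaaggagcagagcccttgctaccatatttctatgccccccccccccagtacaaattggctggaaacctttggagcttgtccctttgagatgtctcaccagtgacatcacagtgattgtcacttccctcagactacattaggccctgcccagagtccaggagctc

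These starts are of very different base composition. In the window from 250 bases before to 50 after the start, GC content was 79.3% for *Atp2a2* with 48 CpG dinucleotides, and 36.0% for *Pln* with 1 CpG. *Trdn* resembled *Pln*, with 39.7% GC and 1 CpG, and *Jph2* stood between at 63.0% and 7. Over 22334 coding windows the medians were 55.3% and 11. The 4 genes with decreased H3K4me2 over a GENCODE start thus lay on both sides of that of *Sln* (50.7%, 2 CpG) and included the highest of the 10 genes. *Ryr2* had 65.3% GC with 18 CpG, and *Srl* had 65.3% with 25 at its annotated 5′ end, which is the start of a non-coding transcript, *Hrc* had 59.3% with 4, and *Casq2* had 44.7% with 6. *Slc8a1* had 33.3% with 5 at its GENCODE 5′ end and 50.7% with 9 at its RefSeq start.

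Of the 300 regions, 10 were in the H3K4me1-decreased list and 8 in the H3K4me2-decreased list, with 1 region in both. The H3K4me1 share was 3.33%, beside 0.761% of all merged regions, and the H3K4me2 share was 2.67%, beside 1.87%. All but 1 of the 10 H3K4me1 calls lay in *Ryr2* and *Jph2*. Without these 2 genes, 1 of 166 regions had decreased H3K4me1 and 4 had decreased H3K4me2. Counted in bases, 18.1% of the 433 kb covered was in H3K4me1-decreased regions, beside 2.49% of the whole merged list. For H3K4me2 the share of bases was 19.6%, beside 9.09%. Of the 78280 bp in H3K4me1-decreased regions, *Ryr2* and *Jph2* held 76100 bp.

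Counted by gene, 3 of the 10 had an H3K4me1-decreased region (*Ryr2*, *Jph2* and *Casq2*), beside 7.08% of coding genes with any region. An H3K4me2-decreased region was found in 6 (*Ryr2*, *Atp2a2*, *Pln*, *Trdn*, *Jph2* and *Hrc*), beside 28.7%. Those coding genes had a median of 5 regions, fewer than most of the 10, and both shares rose with the number of regions, as given below. *Ryr2* and *Jph2* had both kinds, and *Sln*, *Slc8a1* and *Srl* had neither. The map of the 10 loci shows how uneven they are, from a single region at *Pln* to 123 at *Ryr2*.

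**Figure D1:**
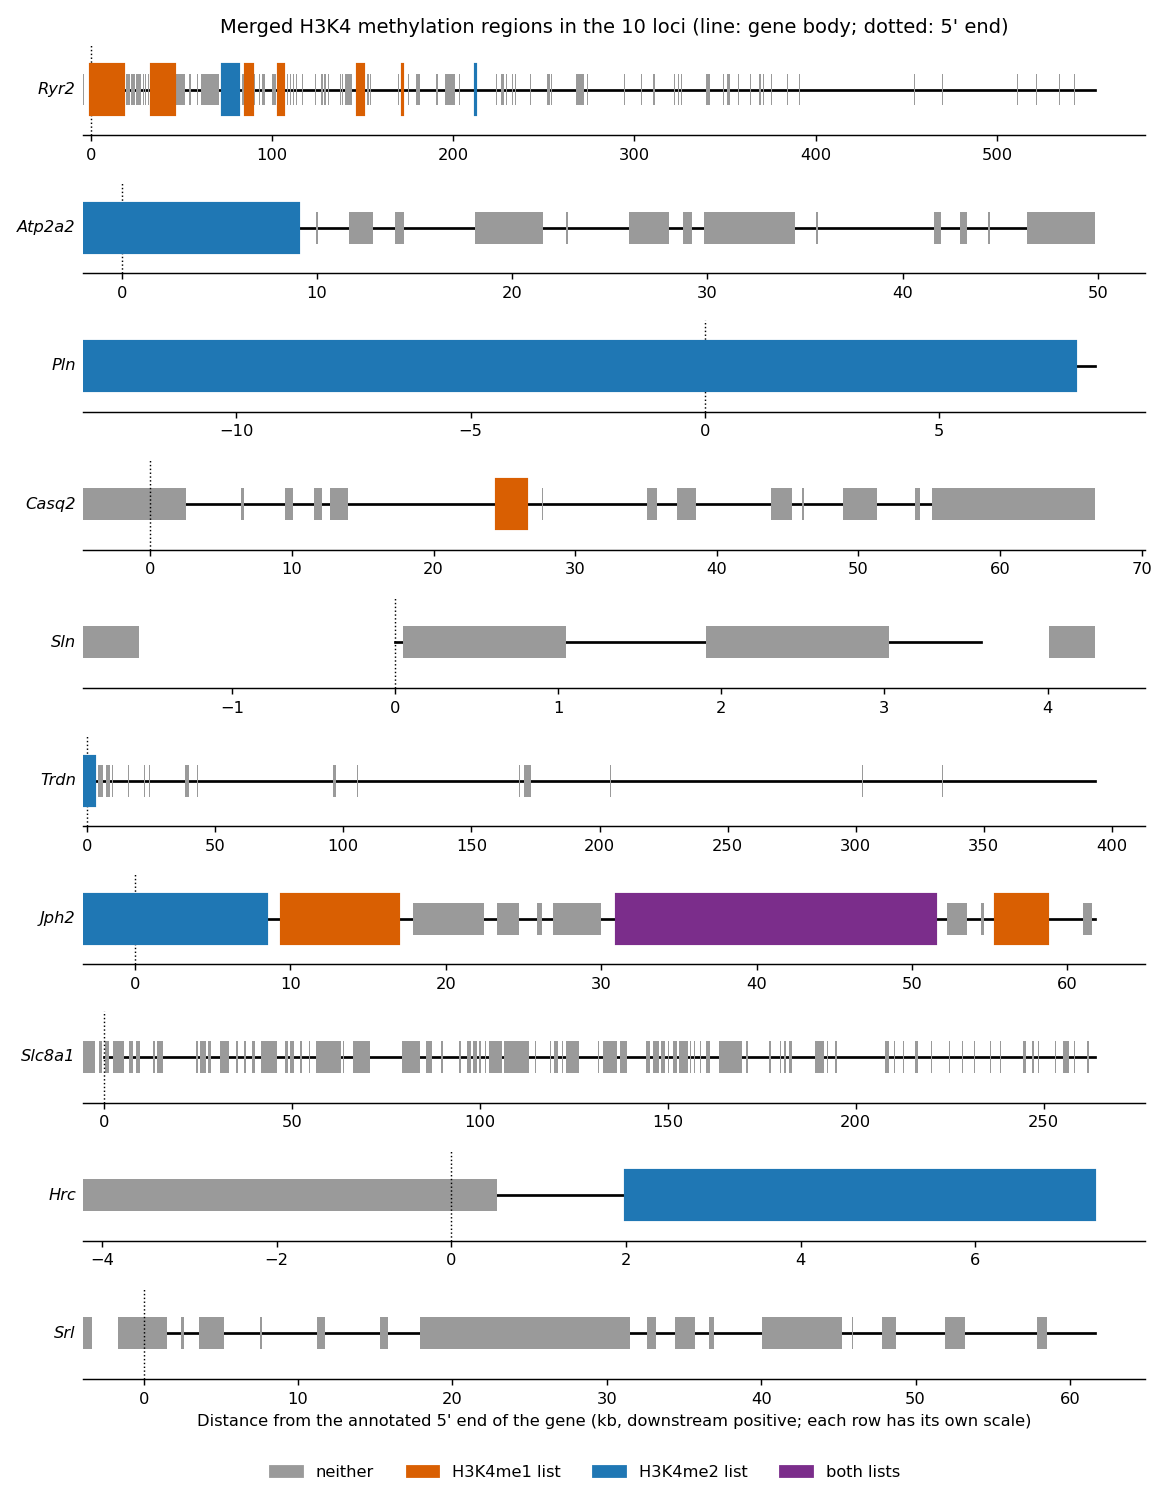
Merged regions of each of the 10 genes, drawn as boxes against the distance from the annotated 5′ end (kb, downstream positive, each gene on its own scale), with the gene body as a line and the 5′ end dotted. Grey regions were in neither decreased list, orange in the H3K4me1 list, blue in the H3K4me2 list and purple in both, and called boxes are taller and outlined so that the narrow ones can be seen. The calls of *Ryr2* lie in the 5′ part of the gene, those of *Atp2a2*, *Pln* and *Trdn* are the region over the start, and *Sln*, *Slc8a1* and *Srl* have none.

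The release channel gene *Ryr2* (ENSMUSG00000021313.8, chr13:11645370-12199212, minus strand, 105 exons) is 554 kb long. Its 123 regions were more than in 99.6% of coding genes with a region, and they covered 25.2% of the body. Decreased H3K4me1 was called in 6 of them. The widest, of 19000 bp (chr13:12180646-12199645), began 0.43 kb before the start and ran 18.57 kb into the gene, over exon 1 and part of intron 1. It was the only region over a TSS of the 10 genes that was in the H3K4me1 list.

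The next 4 lay farther along the first intron of *Ryr2*, which is 160 kb long. They were 13240 bp (chr13:12153006-12166245), 4200 bp (chr13:12109926-12114125), 3480 bp (chr13:12092446-12095925) and 4100 bp wide (chr13:12048466-12052565). The sixth, of 540 bp (chr13:12026946-12027485), lay in intron 2. Between them, in intron 1, an H3K4me2-decreased region of 9440 bp (chr13:12117246-12126685) was not in the H3K4me1 list. A region of 10020 bp beside it (chr13:12128246-12138265) was in neither list, so neighbouring wide regions of the same intron differed in their calls. No region of *Ryr2* was in both lists.

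The last of the 6 H3K4me1 calls of *Ryr2* ended 172 kb from the start, so that all of them lay in the first 31.1% of the gene, a stretch set by the calls themselves. It held 52 regions, of which 13 were 2000 bp or wider, and 56.8% of it was covered. The remaining 382 kb held 71 regions, 4 of them that wide, and 10.1% was covered. With the gene cut into 10 equal parts, coverage went from 83.9% in the first to 3.35% in the last. The calls thus lay where the wide regions were, and whether width alone places them there was not tested. The only call beyond this stretch was an H3K4me2-decreased region of 740 bp in intron 4 (chr13:11986526-11987265).

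**Figure D2:**
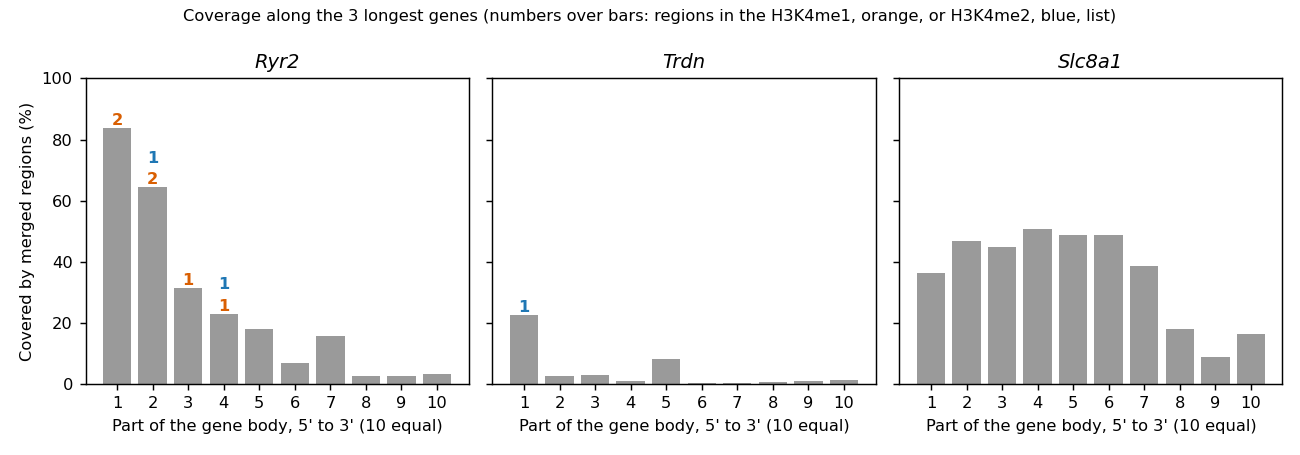
Share of the gene body covered by merged regions (percent, bars from 0) in 10 equal parts from the 5′ end, for *Ryr2*, *Trdn* and *Slc8a1*. Numbers over the bars count regions in the H3K4me1 (orange) or H3K4me2 (blue) list that touch that part. Coverage of *Ryr2* falls from 83.9% to 3.35%, *Trdn* has 22.6% in its first part and little after it, and *Slc8a1* stays between 36.3% and 50.8% over its first 7 parts without a call.

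The 2 narrow calls of *Ryr2* stand apart from the wide ones, and the middle 300 bases of each are given here from NCBIM37 on the plus strand, that is, opposite to the gene. The middle of the H3K4me1 call in intron 2 (chr13:12027065-12027364) had 48.7% GC. That of the H3K4me2 call in intron 4 (chr13:11986745-11987044), which contains a run of alternating CA, had 41.7%. Neither of these stretches of 300 bases held any of the 7 motifs searched, so no base is in capitals.
Ryr2 intron 2: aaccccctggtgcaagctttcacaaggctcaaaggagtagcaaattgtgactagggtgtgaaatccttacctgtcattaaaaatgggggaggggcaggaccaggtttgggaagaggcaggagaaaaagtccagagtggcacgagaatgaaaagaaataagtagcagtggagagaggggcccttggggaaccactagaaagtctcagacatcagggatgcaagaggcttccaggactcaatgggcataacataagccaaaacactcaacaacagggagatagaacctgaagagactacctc
Ryr2 intron 4: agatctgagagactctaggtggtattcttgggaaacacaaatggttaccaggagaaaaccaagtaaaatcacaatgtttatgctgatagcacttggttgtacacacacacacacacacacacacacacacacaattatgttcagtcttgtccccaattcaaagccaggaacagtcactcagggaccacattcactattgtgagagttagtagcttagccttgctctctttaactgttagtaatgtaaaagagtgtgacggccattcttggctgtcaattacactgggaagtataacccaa

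*Jph2* (ENSMUSG00000017817.4, chr2:163161978-163223729, minus strand), which keeps the reticulum and the surface membrane in contact, had calls in 4 of its 11 regions. The regions covered 83.5% of a body of 61.8 kb, beside a median of 20.5% over coding genes. The region over both annotated starts was 11860 bp wide (chr2:163215206-163227065) and was in the H3K4me2 list alone. Downstream of it in intron 2 lay a 7580 bp region (chr2:163206726-163214305) in the H3K4me1 list alone. A region of 20560 bp in intron 3 (chr2:163172206-163192765) was the only 1 of the 300 in both lists. Another H3K4me1 call, of 3400 bp, lay over exons 4 and 5 (chr2:163165006-163168405). In all, 57.4% of the covered bases of *Jph2* lay in H3K4me1-decreased regions and 59.0% in H3K4me2-decreased regions. The 20560 bp region counts in both shares, and a call applies to a whole region and not to each of its bases. Its widest uncalled region, of 4580 bp, was narrower than 3 of the 4 called ones.

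*Casq2* (ENSMUSG00000027861.6, chr3:101890338-101950437, plus strand), the calcium store, had 14 regions and a single call. This was an H3K4me1-decreased region of 2180 bp within intron 2 (chr3:101914726-101916905), 24.39 kb from the 5′ end. Wider regions of the gene were in neither list, among them the 7240 bp region over its coding starts (chr3:101885586-101892825). The same held for an 11520 bp region over the end of the gene and the start of a short non-coding transcript (chr3:101945506-101957025). The call of *Casq2* was thus at an intronic region away from any start.

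*Trdn* (ENSMUSG00000019787.7, chr10:32803289-33196515, plus strand), which links calsequestrin to the channel, is 393 kb long and was sparsely marked. Its 28 regions covered 4.00% of the body and 21 of them were narrower than 500 bp. The region over its start, of 4700 bp (chr10:32801746-32806445), was the widest of the gene and had decreased H3K4me2. It ran from 1.54 kb before to 3.16 kb after the start. No other region of *Trdn* was called.

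*Hrc* (ENSMUSG00000038239.8, chr7:52590660-52594343, plus strand) encodes a histidine-rich calcium-binding protein of the reticulum and is only 3.68 kb long. It had 2 regions of similar width. The 4740 bp region over its starts (chr7:52586446-52591185) was in neither list and also held a TSS of *Trpm4*. The 5380 bp region over exons 1 to 6 and beyond the end of the gene (chr7:52592646-52598025) had decreased H3K4me2 and also held a TSS of *Ppfia3*. This H3K4me2 call therefore cannot be assigned to *Hrc* rather than to its neighbour.

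*Srl* (ENSMUSG00000022519.7, chr16:4480216-4541816, minus strand) encodes sarcalumenin, another calcium-binding protein of the reticulum. None of its 16 regions was called. They included a 13600 bp region over the starts of its coding transcripts (chr16:4510326-4523925), the widest uncalled region of the 10 genes. A 3180 bp region lay over the start of a longer non-coding transcript, 18741 bp upstream (chr16:4540326-4543505).

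Among the genes of calcium uptake, the pump gene *Atp2a2* (ENSMUSG00000029467.8, chr5:122903531-122952183, minus strand) had 14 regions over 48.7 kb. An H3K4me2-decreased region of 11060 bp (chr5:122943106-122954165) lay over its start and exons 1 to 3. It made up 39.6% of the bases covered at the gene, and the next widest region, of 4640 bp, was in neither list. No H3K4me1 call lay in the locus. The nearest, a region of 3760 bp, ended 6.80 kb upstream of the gene (chr5:122958986-122962745), just outside the 5 kb used here.

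*Pln* (ENSMUSG00000038583.6, chr10:53057492-53065805, plus strand), the inhibitor of the pump, had 1 region, which was the widest of all 300. It spanned 21180 bp (chr10:53044226-53065405), from 13.27 kb before the start to 7.91 kb after it, and covered 95.2% of the body. This region had decreased H3K4me2 and was not in the H3K4me1 list. It also held a TSS of the neighbouring *Gm10942*. The nearest other H3K4me2 call was 163 kb away.

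*Sln* (ENSMUSG00000042045.5, chr9:53698058-53701651, plus strand), the other small inhibitor of the pump, was marked in another way than *Pln*. It had 4 regions, of 280 to 1120 bp, and none was called. No region lay over its start, and the nearest, of 1000 bp (chr9:53698106-53699105), began 48 bp downstream. The nearest H3K4me2-decreased region was 20.1 kb upstream and 700 bp wide. Of the 4 regions of *Sln*, 2 were under 500 bp, a width at which none of the 148 regions of the 10 genes was called. No called share of all merged regions under 500 bp stands beside this count, so it describes the 10 genes only. Regions of 60 bp were called at *Jph3* and *Cacna1c*, which are not among the 10.

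The exchanger gene *Slc8a1* (ENSMUSG00000054640.7, chr17:81785359-82048947, minus strand) had 87 regions, second to *Ryr2*, and none was in either list. Its regions covered 35.7% of a body of 264 kb, a larger share than at *Ryr2*, and 14 were 2000 bp or wider. The widest was 6620 bp. Of the 274 coding genes with 80 regions or more, 59 (21.5%) likewise had no call, whereas 44.9% had decreased H3K4me1 and 63.5% had decreased H3K4me2 in at least 1 region. The contrast between *Slc8a1* and *Ryr2* is thus a description of 2 genes with many regions. Neither having no call nor having at least 1 was rare in this class. At least 6 H3K4me1 calls, the number of *Ryr2* itself, were found in 8 of its genes (2.92%).

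The annotated 5′ end of *Slc8a1* is not its only known start. In GENCODE vM1 it lay outside any region, 262 bp from a 960 bp region (chr17:82047726-82048685) that held a second start. The RefSeq start, placed here by an exact match of the RefSeq promoter (GRCm38.p6) to NCBIM37, was at chr17:82137727, 88.8 kb farther upstream. It lay within an H3K4me2-decreased region of 20100 bp (chr17:82122626-82142725), which reached 5.00 kb before and 15.10 kb after that start. A further 17 regions covering 47.6 kb then belong to the gene, and the region over the RefSeq start was the only call among them. With RefSeq starts added, a choice made after seeing the data, 7 of the 10 genes had an H3K4me2-decreased region in place of 6, and 5 had one over a start in place of 4. Whether *Slc8a1* counts as called therefore depends on the annotation.

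**Figure D3:**
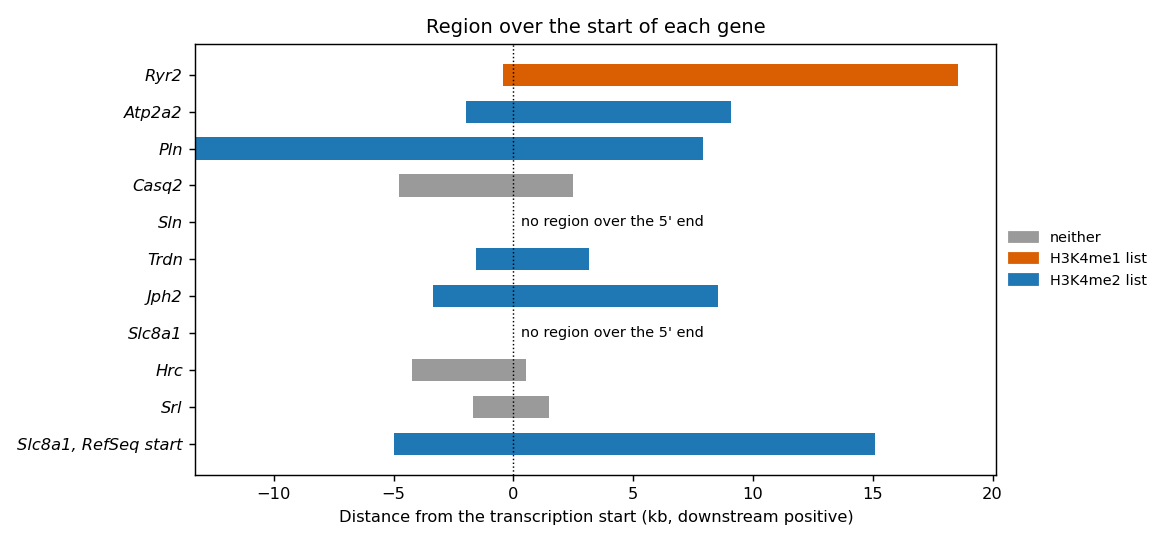
Region over the 5′ end of each gene, drawn from its upstream to its downstream edge (kb from the transcription start, downstream positive). For *Srl* that end is the start of a non-coding transcript, and the 13600 bp region over its coding starts is not drawn. Bars are orange for the H3K4me1 list, blue for the H3K4me2 list and grey for neither, and the bottom bar is *Slc8a1* at its RefSeq start. *Ryr2* alone is in the H3K4me1 list, *Pln* reaches farthest upstream, and no region lies over the 5′ end of *Sln* or the GENCODE 5′ end of *Slc8a1*.

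Taken by position, 9 of the 10 genes had a region over a TSS, beside 15752 of 22367 coding genes. The region over a TSS was in the H3K4me2 list in 4 genes (*Atp2a2*, *Pln*, *Trdn* and *Jph2*), beside 29.2% of coding genes with a region over a TSS. It was in the H3K4me1 list in 1 gene (*Ryr2*), beside 1.29%. Of 255 intronic regions, 8 had decreased H3K4me1 and 3 had decreased H3K4me2. Regions that held an exon but no TSS numbered 27, with 1 call in each list, and the 7 regions outside the gene bodies had no call. Intronic regions made up 85.0% of the 300 regions, 8 of the 10 H3K4me1 calls and 3 of the 8 H3K4me2 calls. The H3K4me1 calls were thus intronic about as often as the regions of these genes in general. No called share of all intronic, exonic or outside regions of the merged list stands beside these counts, so they describe the 10 genes only. The 4 starts with decreased H3K4me2 make up 44.4% of the 9, a share that rests on few genes. Their regions were from 4700 to 21180 bp wide. Over coding genes, the widest region over a TSS had a median width of 3720 bp, so this share and the 29.2% are not matched for width.

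Called regions were wide. Those with decreased H3K4me1 were from 540 to 20560 bp (median 4150 bp), those with decreased H3K4me2 from 740 to 21180 bp (median 10250 bp), and those in neither list from 60 to 13600 bp (median 440 bp). Of 54 regions of 2000 bp or more, 9 (16.7%) had decreased H3K4me1, beside 3.07% of all merged regions of that width. For H3K4me2 it was 7 (13.0%), beside 11.1%. Of the 10 regions of 8000 bp or more, 3 had decreased H3K4me1, beside 5.78%, and 5 had decreased H3K4me2, beside 27.1%. At 2000 bp or more, the H3K4me2 share of the members was therefore near the background, and the H3K4me1 share was above it through *Ryr2* and *Jph2*. The 10 widest regions are too few to read their shares closely. Outside these genes, 31 regions of 2000 bp or more remained, with 1 H3K4me1 call and 4 H3K4me2 calls.

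**Figure D4:**
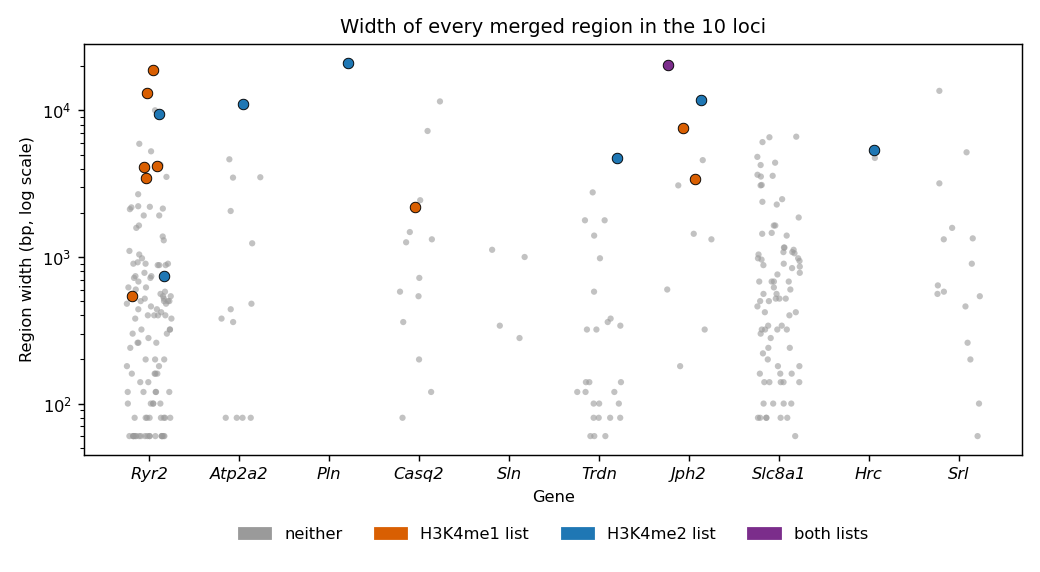
Width of every merged region of the 10 genes (bp, log scale), 1 point per region, spread sideways at random within each gene. Grey points were in neither list and coloured points in the H3K4me1 (orange), H3K4me2 (blue) or both (purple) lists. Called points lie mostly among the widest of their gene, with the 540 and 740 bp regions of *Ryr2* as the exceptions, and the wide grey points at *Casq2* and *Srl* show that width did not always go with a call.

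The number of regions in a locus also went with the calls. Among coding genes with 1 to 4 regions, 1.59% had decreased H3K4me1 and 20.0% had decreased H3K4me2. Among those with 10 to 19 regions, the class of *Atp2a2*, *Casq2*, *Jph2* and *Srl*, the shares were 11.3% and 38.0%. Read against its own class, the presence of H3K4me1 calls at *Ryr2* is thus common and their number is less so. Of the 274 coding genes with 80 regions or more, 8 (2.92%) had at least the 6 of *Ryr2*, and over all coding genes 14 had. Of the 2858 genes with 10 to 19 regions, 11 (0.385%) had at least the 3 of *Jph2*. These classes match the number of regions and not their width, and the cutoffs of 6 and 3 were set by the 2 genes themselves. The regions of *Jph2* had a median width of 3080 bp, beside 320 bp over all merged regions.

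**Figure D5:**
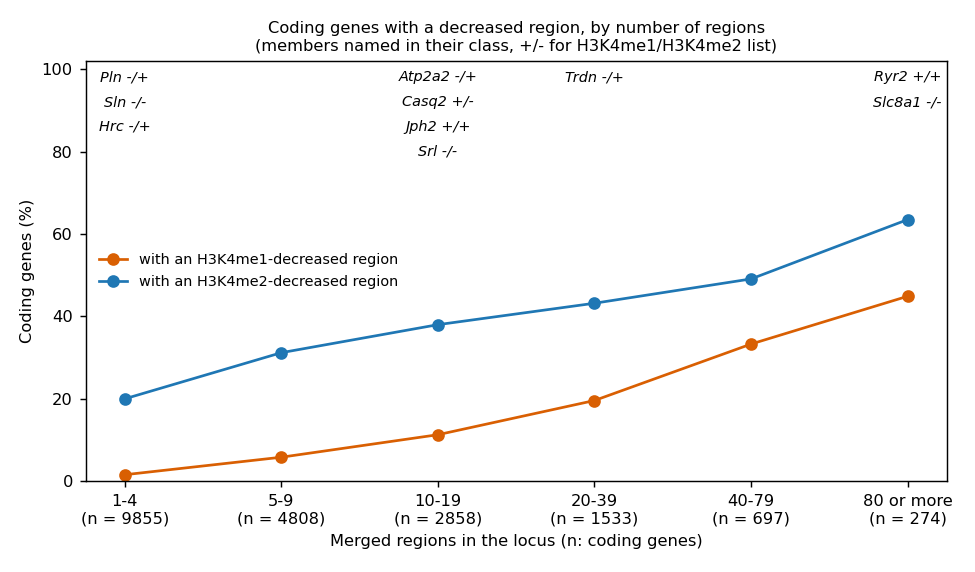
Share of coding genes (percent) with at least 1 H3K4me1-decreased (orange) or H3K4me2-decreased (blue) region, by the number of merged regions in the locus, with the number of genes in each class under the axis. The 10 genes are named in their class with + or - for each list, H3K4me1 first. The H3K4me1 share rises from 1.59% to 44.9% and the H3K4me2 share from 20.0% to 63.5%, with *Ryr2* and *Slc8a1* in the class of 80 regions or more.

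Short sequence motifs of heart and general transcription factors were searched on both strands in the windows of 250 bases before to 50 after the start. TATAAA was found at *Pln*, with its first base at position -219 from the start, and in 13.4% of 22334 coding windows. The GATA motif AGATAA was also found at *Pln* on the opposite strand, at position -183, and in 10.4% of windows. At the RefSeq start of *Slc8a1* AGATAA lay at position -68. The T-box motif AGGTGT (13.1%) was found at the non-coding 5′ end of *Srl* and the MEF2 motif (3.08%) at *Casq2*. The TEAD motif GGAATG (13.4%), the NKX2 motif TNAAGTG (11.4%) and the CArG box (1.47%) were found at none of the 10. A MEF2 or CArG match can contain TATAAA, and each motif was counted separately. These matches describe letters only.

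In the middle 300 bases of the 17 called regions, AGATAA was found in 5, TATAAA and the T-box motif in 3 each, the TEAD, NKX2 and MEF2 motifs in 2 each, and the CArG box in none. Over the 185299 merged regions of at least 300 bp, the GATA motif was found in 19.6%, TATAAA in 18.3%, the T-box motif in 15.1%, the TEAD motif in 17.6%, the NKX2 motif in 17.2%, the MEF2 motif in 5.24% and the CArG box in 1.61%. Median GC content was 47.2% in the H3K4me1-decreased and 44.3% in the H3K4me2-decreased regions of the 10 genes, beside 43.0% in their uncalled regions and 45.4% in the whole merged list. *Trdn* had the lowest value of a called region, at 37.1%, and the *Hrc* region the highest, at 55.7%.

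The other genes of calcium handling give a wider view. A list of 27, with the skeletal and ubiquitous relatives of the members, regulators of the release channel, calmodulins, store-operated entry and the L-type channel, held 674 regions. Of these, 23 (3.41%) had decreased H3K4me1 and 11 (1.63%) had decreased H3K4me2, beside 0.761% and 1.87% of all merged regions. By gene, 4 (14.8%) had an H3K4me1 call and 10 (37.0%) had an H3K4me2 call, beside 7.08% and 28.7% of coding genes with a region, while 3 had both and 16 had neither. The H3K4me2 share of regions was thus near the background, and the H3K4me1 share above it rested mostly on 1 gene. *Cacna1c*, the L-type channel that triggers RYR2, held 19 of the 23 H3K4me1 calls, all of them intronic, among its 143 regions. Like *Ryr2*, which held 6, *Cacna1c* is in the class of 80 regions or more, in which 44.9% of coding genes had at least 1 H3K4me1 call. *Slc8a1*, *Itpr1* and *Itpr2* are in the same class and had no H3K4me1 call.

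Decreased H3K4me2 over a TSS was found in 6 of the 27 (22.2%), beside 29.2% of coding genes with a region over a TSS: *Asph*, which encodes junctin, a partner of triadin, the calmodulin genes *Calm2* and *Calm3*, the store-operated entry genes *Stim2* and *Orai1*, and *Tmem38a*, a potassium channel of the reticulum. The regions of *Asph*, *Orai1* and *Tmem38a* also held a TSS of another gene, so their calls cannot be assigned to 1 gene. No H3K4me1 call lay over a TSS of these genes. The pump relatives differed from *Atp2a2*. The skeletal pump gene *Atp2a1* had 2 H3K4me1 calls and no H3K4me2 call, and *Atp2a3* had neither. Among relatives of the release channel, *Ryr1*, *Ryr3* and the inositol trisphosphate receptor genes *Itpr1*, *Itpr2* and *Itpr3* had no call, although *Itpr1* had 91 regions and *Itpr2* had 96. *Slc8a2* and *Slc8a3* had none either. Of the other junctophilins *Jph3* had a call in each list, the H3K4me2 one only 60 bp wide, and *Jph1* had no call. *Jph4* had decreased H3K4me2 in a region at its end that also held a TSS of *Ap1g2*. The 1 H3K4me2 call of *Cacna1c* was also 60 bp wide, and that of *S100a1* lay outside its body over a TSS of *2500003M10Rik*. *Asph* also had an intronic H3K4me1 call.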

How the data were processed

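Per the labels and the study's methods, H3K4me1, H3K4me2 and H3K4me3 ChIP-Seq was carried out on 3 pools of 30 E11.5 hearts per genotype. The submitters' processing notes name CASAVA 1.8.2, FastQC, Bowtie, Bowtie2, SAMtools and mm9. The peak caller and the test behind the decreased lists are not given in the sources used here. The authors deposited 3 lists of region positions, a merged list of 358833, one of 2730 with decreased H3K4me1 and one of 6699 with decreased H3K4me2, without counts or scores, so depth and precision are unknown. The study states an FDR of 0.1 for decreased regions, and it reports fewer H3K4me2-decreased regions at that FDR than the 6699 deposited. Whether every deposited H3K4me2 region passed it could not be checked, and all H3K4me2 counts and shares here rest on the deposited list. Every decreased region was identical to a merged region. The last region on each of 21 chromosomes ended within its length in NCBIM37.

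Regions were assigned with Python 3.11.15, pandas 2.3.3 and numpy 2.4.6 to GENCODE vM1 genes (body, or 5 kb from a TSS, at least 1 bp), and sequence was read with pysam 0.24.0. On simulated regions 1000 of 1000 were assigned as the rule sets out, which checks the code and not the choice of rule. RefSeq promoters (GRCm38.p6) were found for 6 of the 10 genes. The 10 genes, with 27 further calcium handling genes (1 other gene of that list is not reported here) and the marker genes, were named by list, and lists and members were chosen with earlier results of these data known. No test was run, since the lists hold no replicate values. Coordinates are 1-based.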

Additional observations from a re-analysis of the deposited data

How the results depend on the processing

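Over 10 counts and shares for the calcium handling genes, 78 of 81 alternative values were counted as unchanged, that is, within 1.5 times for a count or inside a 95% Wilson interval over 300 regions for a share of bases. Small counts can change within that tolerance. The interval treats regions of unequal width as equal and independent, so it is a tolerance only and measures no spread. Regions of at least 500 bp or 1000 bp numbered 152 and 89 in place of 300. Within 10 kb of a TSS, 4 genes in place of 3 had an H3K4me1 call, *Atp2a2* being added. With regions that held a TSS of another gene left out, which drops the *Pln* and *Hrc* regions, the H3K4me2 share of bases was 14.6% in place of 19.6%, 4 genes in place of 6 had an H3K4me2 call and 3 in place of 4 had one over a TSS. That alternative and the addition of RefSeq starts were chosen after seeing the data. Taking 1 bp of overlap in place of identical coordinates gives the same values by construction, and these are counted among the 78. No paired analysis was possible because the lists hold no value per replicate, and for the same reason no replicate could be left out.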
